A study of Mus musculus with 2 samples.

Results

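The genes described here carry growth hormone and interleukin-6 (IL-6) signals from the surface of a liver cell to its nucleus. They were taken by gene symbol: *Ghr*, *Il6ra* and *Il6st* for receptor chains, *Jak2* for a kinase, *Stat5a*, *Stat5b* and *Stat3* for transcription factors, and *Socs2*, *Cish* and *Socs3* for feedback inhibitors. All 10 symbols were found among the 21878 listed, and all 10 had enough counts to be compared, as did 13027 genes in all. PolyA RNA was sequenced from mouse liver (strain FVB/N, hydrodynamically injected with c-Myc), in 1 library with TSA and 1 library without treatment (untreated). Hydrodynamic injection is a rapid tail vein injection of a large volume that brings DNA into part of the hepatocytes, and both groups carry it, so no uninjected liver was compared. The labels do not spell out TSA. They give no dose, time, age or sex, and they do not say whether a sample was tumour or whole liver, or how many animals gave it.

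Growth hormone binds its receptor on hepatocytes and activates the kinase JAK2, which phosphorylates STAT5A and STAT5B. In the liver STAT5B is the main mediator of the response, which includes the insulin-like growth factor gene *Igf1* and the inhibitor genes *Socs2* and *Cish*. IL-6 binds the IL-6 receptor chain together with gp130, the product of *Il6st*, and acts mainly through JAK1 and STAT3 to switch on acute phase genes and the inhibitor gene *Socs3*. SOCS proteins bind active receptors or kinases and damp the signal that induced them.

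The TSA library held 17088227 counts and the untreated library 17281523. With 1 library per group no test across conditions is possible and no p-value is given. Ratios are TSA over untreated, after scaling of the libraries by TMM (trimmed mean of M-values), and the 95% interval in parentheses covers counting error only. A call, higher or lower, asks for a difference of 2-fold or more and for an interval clear of a ratio of 1. By this rule 27.0% of the tested genes were called higher and 26.0% lower. Without TMM, on total counts, every log2 ratio was smaller by 0.92, and 16.0% of genes were called higher and 48.7% lower. All tested genes together had a median log2 ratio of -0.04 under TMM and -0.96 on total counts. FPKM values, which are per length and per library total, carry the total-count scaling.

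All 8 markers of hepatocytes, the main cells of the labelled tissue, were detected in both libraries. They summed to 141361 CPM (TMM scaled, relative to library size) in the TSA library and 4443 CPM in the untreated library. *Alb* alone gave 114740 and 1919 CPM of these sums. All 8 were called higher with TMM and 7 on total counts, where *Hnf4a*, at 1.36-fold, was not called. All 7 markers of dividing cells were called lower, at a summed 20.7 CPM in the TSA library and 1385 CPM in the untreated library. Of the endothelial markers 7 of 8 were called higher with TMM, at 683 and 105 CPM, and 5 on total counts. Fewer cells of a type and less RNA per cell cannot be told apart in these samples. The part of tissue makeup in the results below was not tested.

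With TMM 7 of the 10 genes were called higher with TSA and none lower, against 27.0% and 26.0% of all tested genes. On total counts 5 were called higher and none lower, against 16.0% and 48.7%. *Ghr*, *Il6ra*, *Il6st*, *Socs2* and *Socs3* were called under both scalings, *Stat5a* and *Stat3* with TMM alone, and *Stat5b*, *Cish* and *Jak2* under neither. The last 3 had ratios above 1 with TMM and below 1 with total counts. The 10 genes had a median log2 ratio of 1.71 under TMM and 0.79 on total counts, which is 1.76 above the median of all tested genes under either scaling. The 10 log2 ratios, from 0.26 to 3.47 with TMM, all lay below the median of the hepatocyte markers, 3.92. Those markers spread widely, from 1.36 for *Hnf4a* to 10.2 for *Tat*. *Socs2* exceeded *Hnf4a*, *Ttr* (2.74), *Apoa1* (2.85) and *Asgr2* (3.38) and lay below the other hepatocyte markers.

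**Figure D1:**
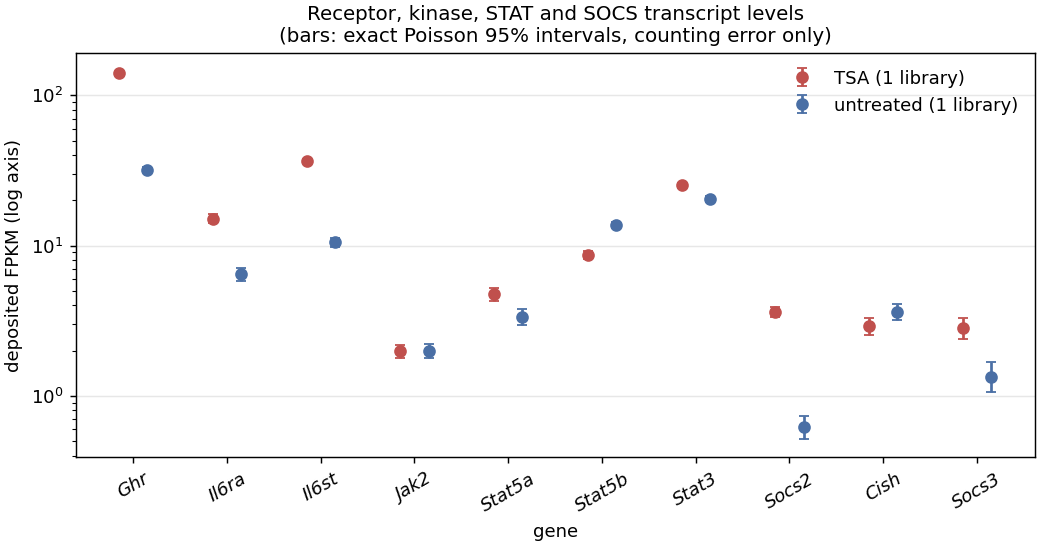
Deposited FPKM (log axis) of the 10 genes, receptors at the left and inhibitors at the right, with the TSA library in red and the untreated library in blue beside it. Points are the values of single libraries and bars are exact Poisson 95% intervals. *Ghr* stands highest in both libraries, and *Socs2* has the widest gap between them, at 3.63 FPKM with TSA and 0.621 FPKM without treatment.

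The receptor chains were called higher as a group, all 3 under both scalings. *Ghr*, which codes for the growth hormone receptor, had 10893 counts (141 FPKM) in the TSA library and 2500 counts (32.0 FPKM) in the untreated library. Its ratio was 8.33-fold (7.97 to 8.70), or 4.41-fold on total counts. *Il6st*, for the signal-transducing chain gp130 that the whole IL-6 family shares, had 3410 counts (36.6 FPKM) in the TSA library and 989 counts (10.5 FPKM) in the untreated library. Its ratio was 6.59-fold (6.14 to 7.08), or 3.49-fold on total counts. *Il6ra*, for the chain that binds IL-6 itself, had 873 counts (15.1 FPKM) in the TSA library and 375 counts (6.43 FPKM) in the untreated library. Its ratio was 4.45-fold (3.94 to 5.04), or 2.35-fold on total counts. *Il6st* thus differed more than its partner chain, and the FPKM ratio *Il6st*/*Il6ra* was 2.42 with TSA and 1.63 without treatment. The chains summed to 193 FPKM in the TSA library and 48.9 FPKM in the untreated library, and *Ghr* made up 73.2% and 65.4% of these sums.

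*Jak2*, for the kinase that sits on the growth hormone receptor, did not follow its receptor. It had 366 counts (1.97 FPKM) in the TSA library and 374 counts (1.995 FPKM) in the untreated library. Its ratio was 1.87 (1.61 to 2.17) with TMM and, on total counts, 1.01-fold below the untreated level with an interval that holds 1. The FPKM ratio *Ghr*/*Jak2* was 71.4 in the TSA library and 16.0 in the untreated library. That ratio was 4.45-fold (3.82 to 5.19) larger with TSA, a value that library scaling does not move. In the TSA library *Jak2* had the lowest deposited FPKM of the 10 genes, an order that the length of its gene model decides.

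The STAT genes differed from each other in their ratios. *Stat5a* had 372 counts (4.75 FPKM) in the TSA library and 264 counts (3.33 FPKM) in the untreated library. Its ratio was 2.69-fold (2.29 to 3.17), called higher, and 1.43-fold on total counts, where it was not called. *Stat5b* had 1192 counts (8.66 FPKM) in the TSA library and 1902 counts (13.7 FPKM) in the untreated library. With TMM its ratio was 1.20 (1.11 to 1.29), not called, and on total counts 1.58-fold (1.47 to 1.70) below it. *Stat3*, for the factor that IL-6 activates, had 2039 counts (25.1 FPKM) in the TSA library and 1672 counts (20.4 FPKM) in the untreated library. It was 2.33-fold (2.18 to 2.49) higher with TMM and at 1.23-fold on total counts, where it was not called.

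Set against each other, the STAT transcripts differed in makeup between the libraries. *Stat5b* exceeded *Stat5a* 1.82-fold in FPKM in the TSA library and 4.10-fold in the untreated library, so the *Stat5b*/*Stat5a* ratio was 2.25-fold (1.88 to 2.69) lower with TSA. The *Stat5b*/*Stat3* ratio was 0.345 in the TSA library and 0.671 in the untreated library, a 1.95-fold (1.76 to 2.15) difference. As a share of the FPKM of all 3 STAT genes, *Stat5b* held 22.5% with TSA and 36.6% without, *Stat3* 65.2% and 54.5%, and *Stat5a* 12.3% and 8.91%. Their sum was 38.5 FPKM in the TSA library and 37.4 FPKM in the untreated library, on the total-count scale. *Stat5a* and *Stat5b* are close paralogs that lie next to each other, beside *Stat3*, on chromosome 11, and no source used here says how reads shared by both were counted. The split between *Stat5a* and *Stat5b* is therefore uncertain.

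**Figure D2:**
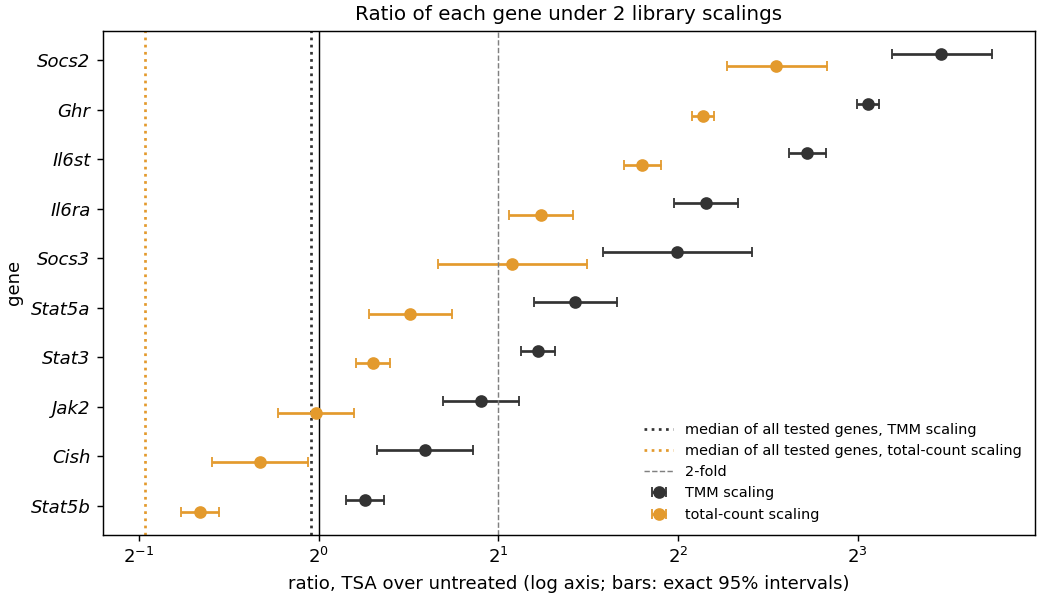
Ratio of TSA over untreated (log axis) for each of the 10 genes, with TMM scaling in black and total-count scaling in orange, and exact 95% intervals as bars. Dotted lines mark the median of all tested genes under each scaling, the solid line a ratio of 1 and the dashed line 2-fold. All 10 genes lie above the median of all genes, and *Stat5b*, *Cish* and *Jak2* fall on opposite sides of 1 under the 2 scalings.

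The feedback inhibitors split. *Socs2*, the growth hormone response gene that limits body growth in mice, had the largest ratio of the 10. It had 734 counts (3.63 FPKM) in the TSA library and 127 counts (0.621 FPKM) in the untreated library. Its ratio was 11.05-fold (9.14 to 13.4), or 5.84-fold on total counts. *Cish*, another STAT5 response gene, had 213 counts (2.90 FPKM) in the TSA library and 270 counts (3.64 FPKM) in the untreated library. Its ratio was 1.51 (1.25 to 1.81) with TMM, and on total counts it was 1.25-fold (1.04 to 1.51) below the untreated level. *Socs3*, the main inhibitor of gp130 signals, had 154 counts (2.82 FPKM) in the TSA library and 74 counts (1.34 FPKM) in the untreated library. It was 3.98-fold (3.0 to 5.32) higher, or 2.10-fold (1.58 to 2.82) on total counts, and it rests on the fewest counts of the 10.

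*Socs2* and *Cish*, both known as growth hormone targets, thus differed from each other far beyond counting error. The FPKM ratio *Socs2*/*Cish* was 1.25 in the TSA library and 0.171 in the untreated library, 7.33-fold (5.60 to 9.59) larger with TSA. The ratio *Socs2*/*Socs3* was 1.29 in the TSA library and 0.463 in the untreated library, 2.78-fold (1.95 to 3.93) larger. In the TSA library *Socs2*, *Cish* and *Socs3* held 38.8%, 31.0% and 30.2% of their summed FPKM. In the untreated library they held 11.1%, 65.0% and 23.9%. *Cish* had the largest share without treatment. The order of the smaller shares depended on gene model length in both libraries. With the longest GENCODE M21 transcript as length, *Socs2*, *Cish* and *Socs3* held 62.1%, 16.3% and 21.7% in the TSA library and 25.7%, 49.4% and 24.9% in the untreated library.

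Promoter windows are shown for *Cish* and *Socs3*, the genes of the set in whose windows the letters bound by STAT dimers were found. The motif searched was TTCNNNGAA, which reads the same on both strands, in windows from 250 bases before to 50 bases after each RefSeq start (build GRCm38.p6). RefSeq windows matched 9 of the 10 genes, 12 windows in all, and *Socs2* was not among them. The motif was in 2 of the 12 windows, and in 8.30% of all 32851 windows of the table. The sequences below run to 30 bases after the start, 5′ to 3′, with the motif in capitals.
Cish, chr9:107296409-107296688, plus strand: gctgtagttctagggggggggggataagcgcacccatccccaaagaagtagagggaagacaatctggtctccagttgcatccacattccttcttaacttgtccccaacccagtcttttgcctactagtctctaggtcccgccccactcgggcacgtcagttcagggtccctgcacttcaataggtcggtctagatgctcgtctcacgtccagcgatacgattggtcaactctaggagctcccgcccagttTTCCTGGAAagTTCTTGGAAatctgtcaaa
Socs3, chr11:117969337-117969616, minus strand: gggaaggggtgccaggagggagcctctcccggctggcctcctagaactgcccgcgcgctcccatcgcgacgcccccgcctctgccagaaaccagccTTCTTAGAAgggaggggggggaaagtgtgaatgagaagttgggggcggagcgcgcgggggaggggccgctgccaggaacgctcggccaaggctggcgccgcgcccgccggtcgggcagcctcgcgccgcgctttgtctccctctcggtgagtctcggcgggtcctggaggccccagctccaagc
In *Cish* the motif occurs 2 times without overlap, the first beginning at the start site and the second 11 bases further, and 0.457% of all windows hold at least 2. In *Socs3* it begins 154 bases before the start. *Cish* and *Socs3* fell on different sides of the call, and a match describes the letters of the window and is no measure of binding.

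The rest of the SOCS family, which holds 8 genes with *Cish*, included 3 genes called lower. *Socs6* was 2.89-fold (2.51 to 3.34) lower with TSA, at 2.18 FPKM in the TSA library and 11.9 FPKM in the untreated library. *Socs7* was 2.50-fold (2.15 to 2.92) lower, at 1.64 FPKM with TSA and 7.77 FPKM without. *Socs4*, named after its values were seen, was 2.06-fold (1.69 to 2.54) lower, at 3.31 FPKM with TSA and 12.9 FPKM without. These SOCS proteins are best known outside the classical cytokine feedback loop, for instance in control of growth factor receptors. *Socs1*, with 6 counts in the TSA library and 16 in the untreated library, and *Socs5*, at 1.47-fold with TMM and 1.28-fold below the untreated level on total counts, were not called. Under both scalings 2 of the 8 were called higher and 3 lower, counts near the shares of all tested genes with TMM (27.0% higher and 26.0% lower) and not above the 48.7% lower on total counts. The family summed to 18.1 FPKM in the TSA library and 40.7 FPKM in the untreated library. These sums are on the total-count scale and rest on the authors' gene model lengths.

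**Figure D3:**
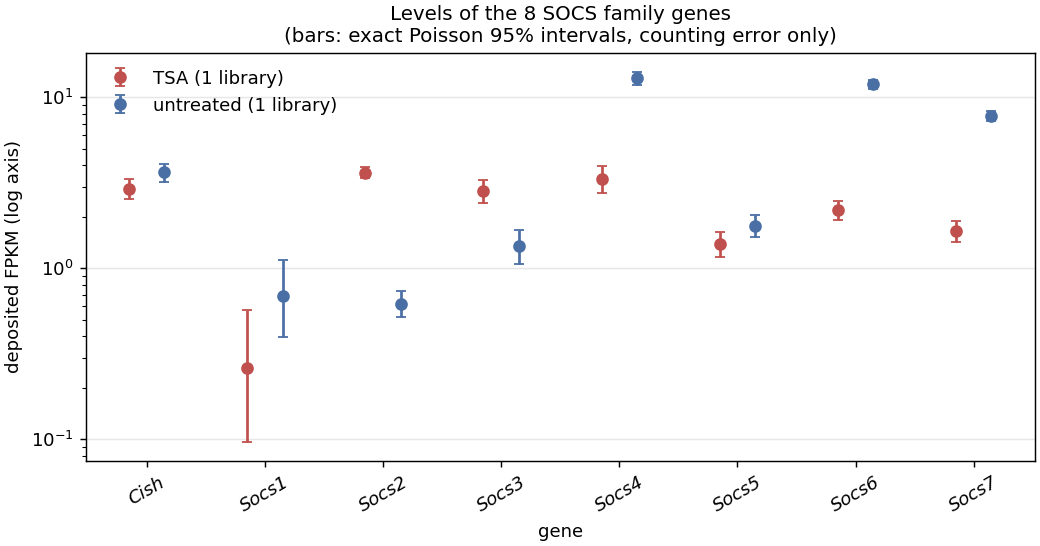
Deposited FPKM (log axis) of the 8 SOCS family genes, TSA library in red and untreated library in blue, with exact Poisson 95% intervals. *Socs2* and *Socs3* lie higher in the TSA library, and *Socs4*, *Socs6* and *Socs7* lie higher in the untreated library, at 7.77 to 12.9 FPKM.

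**Figure D4:**
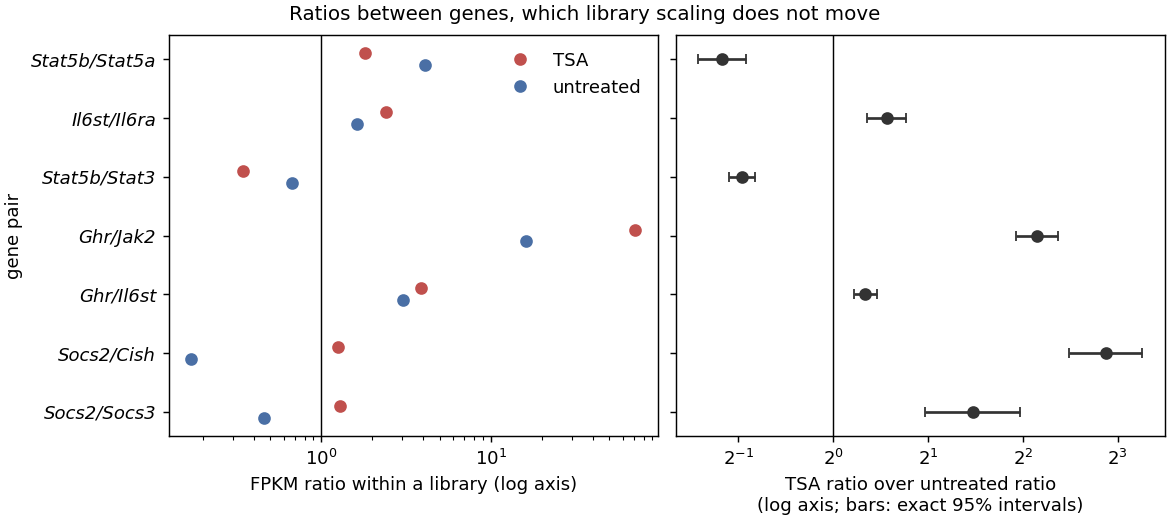
FPKM ratios within each library for 7 gene pairs (left, log axis, TSA in red and untreated in blue) and the TSA ratio over the untreated ratio with exact 95% intervals (right, log axis). The *Socs2*/*Cish* pair differs most, 7.33-fold, and no interval holds 1.

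The order of the levels differed between the libraries. Per length, the TSA library ran from *Ghr* through *Il6st*, *Stat3*, *Il6ra*, *Stat5b*, *Stat5a*, *Socs2*, *Cish* and *Socs3* to *Jak2*. *Cish* and *Socs3*, at 2.90 and 2.82 FPKM, did not differ there beyond counting error. The untreated library ran from *Ghr* through *Stat3*, *Stat5b*, *Il6st*, *Il6ra*, *Cish*, *Stat5a*, *Jak2* and *Socs3* to *Socs2*, and *Cish* and *Stat5a*, at 3.64 and 3.33 FPKM, did not differ beyond counting error. Among all tested genes *Ghr* stood above 96.4% by FPKM in the TSA library and above 80.9% in the untreated library. *Il6st* stood above 88.7% and 56.6%, and *Socs2* above 46.6% and 12.7%. *Stat5b* kept nearly its place, above 66.8% and 62.7%.

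These orders rest on the lengths of the authors' gene models. The model of *Socs2* measured 11833 bases, against 4242 bases for its longest GENCODE M21 transcript, and that of *Il6ra* 3377 bases, against 8639. With the longest transcript as length, *Socs2* would stand at 10.1 FPKM in the TSA library and 1.73 FPKM in the untreated library, and *Il6ra* at 5.91 and 2.51 FPKM. *Jak2*, whose model of 10846 bases compares with 5030 bases, would stand at 4.26 FPKM in the TSA library, above *Socs3* at 3.53 and *Cish* at 2.65 FPKM. The level ratio *Ghr*/*Jak2* would be 35.9 in the TSA library and 8.05 in the untreated library, and *Socs2*/*Cish* 3.82 and 0.521. *Il6st*/*Il6ra* would be 3.89 with TSA and 2.63 without, and *Ghr* would hold 84.1% and 79.2% of the receptor chains. The *Stat5b*/*Stat3* ratio would be 0.678 in the TSA library and 1.32 in the untreated library, so *Stat5b* would hold the largest share of the STAT genes without treatment, 51.5%. The TSA over untreated ratios, of genes and of pairs, do not depend on length.

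The other kinases and factors of the pathway differed little. Of 7 further JAK and STAT genes 3 were called higher and none lower with TMM, and none either way on total counts. *Jak1*, for the main kinase of gp130, had 28.8 FPKM in the TSA library and 31.4 FPKM in the untreated library, a ratio of 1.74 (1.65 to 1.83) with TMM and 1.09-fold below the untreated level on total counts. *Stat6*, for the factor of interleukin-4 signals, was 3.21-fold (2.89 to 3.56) higher with TMM. *Tyk2*, named after its value was seen, was also called higher. The inhibitor list, with the further SOCS genes, PIAS proteins and phosphatases, had 1 of 13 genes called higher and 3 lower with TMM, and 0 and 9 on total counts. Of all tested genes 27.0% were called higher and 26.0% lower with TMM, against 16.0% and 48.7% on total counts. The list's median log2 ratio lay 0.37 below that of all genes. *Ptpn11*, for the phosphatase SHP2 that binds gp130, had 16.99 FPKM in the TSA library and 42.8 FPKM in the untreated library. It was 1.33-fold (1.26 to 1.41) below the untreated level with TMM, not called, and 2.52-fold below on total counts, where it was called. *Pias2* was 1.29-fold (1.17 to 1.41) below with TMM, not called, and 2.43-fold below on total counts, where it was called. *Ptpn6*, named after its value was seen, was the gene called higher with TMM.

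The receptor genes *Prlr* and *Lifr* had larger ratios than *Ghr*. *Prlr*, for the prolactin receptor, which signals through JAK2 and STAT5 as well, had 8483 counts (35.5 FPKM) in the TSA library and 53 counts (0.220 FPKM) in the untreated library, a ratio of 306-fold (234 to 409). *Lifr*, for the leukaemia inhibitory factor receptor that pairs with gp130, had 14232 counts (77.9 FPKM) in the TSA library and 908 counts (4.91 FPKM) in the untreated library, a ratio of 29.96-fold (28.01 to 32.07). *Lifr* thus exceeded *Il6st* in FPKM with TSA and lay below it without treatment. *Il11ra1* was 6.16-fold (5.08 to 7.52) higher and *Lepr*, for the leptin receptor, 7.01-fold (4.74 to 10.6) higher. *Cntfr* had 42 counts with TSA and 6 without, *Il27ra* 44 and 23, and *Epor* 39 and 22, and all 3 were called higher with TMM. *Osmr*, for the oncostatin M receptor, with 64 counts in the TSA library and 66 in the untreated library, was not called. Nor were the interferon receptor genes *Ifnar1*, at 1.83-fold, and *Ifngr1*, at 1.04-fold with TMM. On total counts both lay below the untreated level, by 1.03-fold and 1.82-fold, and were not called. *Il22ra1* was 3.01-fold (2.35 to 3.90) lower and *Il10rb*, for its partner chain, 2.38-fold (1.96 to 2.89) lower. Of these 11 receptor genes, without *Prlr*, 6 were called higher and 2 lower with TMM, and 4 and 2 on total counts. The shares of all tested genes were 27.0% higher and 26.0% lower with TMM, and 16.0% and 48.7% on total counts.

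The ligand genes were scarce. *Il6* had 9 counts in the TSA library and 1 count in the untreated library, too few to be compared, and *Il11*, *Osm* and *Il27* had at most 4 counts in either. *Lif* had 2 counts with TSA and 37 without, a 9.68-fold (2.50 to 82.9) lower level, and *Clcf1* had 12 and 53, a 2.31-fold (1.22 to 4.75) lower level. *Ctf1*, with 57 and 58 counts, and *Cntf*, with 14 and 19, were not called. Growth hormone itself is made in the pituitary and was not in the list.

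Most listed targets of liver STAT5 were called higher. With TMM so were most tested genes listed as rising when that signal is lost. Of 12 STAT5-activated targets 11 were called higher and 1 lower with TMM, and 10 and 1 on total counts. The shares of all tested genes were 27.0% higher and 26.0% lower with TMM, and 16.0% and 48.7% on total counts. The median log2 ratio of the list lay 6.91 above that of all genes. The median of the 8 hepatocyte markers, all called higher with TMM, lay 3.97 above that of all genes. Those markers ran from a log2 ratio of 1.36 for *Hnf4a* to 10.2 for *Tat*. The part of hepatocyte RNA in the ratios of these targets was not tested. *Igf1* had 20884 counts (143 FPKM) in the TSA library and 431 counts (2.92 FPKM) in the untreated library, a ratio of 92.6-fold (84.2 to 102). *Igfals*, for the protein that stabilises circulating IGF1, had 5028 counts (123 FPKM) in the TSA library and 81 counts (1.96 FPKM) in the untreated library, a ratio of 119-fold (95.3 to 150). *Egfr*, for the epidermal growth factor receptor, was 506-fold (370 to 712) higher and *Mup3*, of the major urinary protein family, whose close copies may share reads, 332-fold (285 to 388). *Hsd3b5* had 259 counts with TSA and 1 without, a ratio of 495-fold (88.1 to 19627). *Cyp4a12a*, named after its values were seen, was the lower member, with 30 counts in the TSA library and 425 in the untreated library. It was 7.41-fold (5.12 to 11.1) lower with TMM and 14.01-fold on total counts. *Elovl3*, also named after its values were seen, had 179 counts with TSA and 0 without. With the untreated library set to a floor of 3 counts its ratio was 114-fold, and the exact interval starts at 91.8-fold.

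Of 7 genes known to rise in liver when growth hormone to STAT5 signalling is lost, 6 were tested. Of these 5 were called higher and none lower with TMM, against 3 and 1 on total counts. All tested genes had shares of 27.0% higher and 26.0% lower with TMM, and 16.0% and 48.7% on total counts. *Bcl6*, for a repressor that competes with STAT5 on DNA, had 536 counts (5.90 FPKM) in the TSA library and 99 counts (1.08 FPKM) in the untreated library, a ratio of 10.3-fold (8.34 to 13.0). *Vldlr*, for the very low density lipoprotein receptor, was 16.8-fold (12.3 to 23.4) higher. *Cd36*, for a fatty acid transporter, was 2.13-fold (1.87 to 2.43) higher with TMM and at 1.13-fold on total counts. *Mogat1*, named after its value was seen, was the sole tested member below the untreated level with TMM, at 1.79-fold and not called. The list median lay 1.85 above that of all genes, against 1.76 for the 10 signalling genes. In the wider growth hormone list, which shares *Igf1* and *Igfals* with the STAT5 targets, 6 of 10 genes were called higher and 1, *Sirpa*, lower with TMM, and 4 and 3 on total counts. *Sirpa*, a receptor gene named after its value was seen, was 2.08-fold (1.89 to 2.29) lower.

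STAT3 targets differed by class. All 18 acute phase genes were called higher with TMM and 17 on total counts, with a list median 5.98 above that of all genes. The 8 hepatocyte markers, all called higher with TMM and 7 on total counts, had a median 3.97 above that of all genes. The part of hepatocyte RNA in the acute phase ratios was not tested. Among all tested genes 27.0% were called higher and 26.0% lower with TMM, and 16.0% and 48.7% on total counts. The fibrinogen genes *Fga* and *Fgb* had the most counts and smaller ratios, 4.05-fold (3.99 to 4.10) and 4.68-fold (4.61 to 4.75). The serum amyloid genes *Saa1* and *Saa2*, near-identical copies that may share reads, had 8 and 4 counts in the untreated library, against 2564 and 1638 in the TSA library. Their ratios were 613-fold (310.4 to 1420) and 783-fold (305 to 2876). Of 12 early response and survival targets 8 were called higher and 1 lower with TMM, and 6 and 2 on total counts. *Ccnd1*, for cyclin D1, had 5267 counts (79.6 FPKM) in the TSA library and 237 counts (3.54 FPKM) in the untreated library, a ratio of 42.5-fold (37.3 to 48.6). *Birc5*, for survivin, a gene of dividing cells, was 75.9-fold (49.1 to 125) lower, with 20 counts in the TSA library and 2903 in the untreated library. *Mcl1*, for a survival factor, was 1.31-fold (1.24 to 1.39) below the untreated level with TMM and not called, and 2.48-fold below on total counts, where it was called. *Pim1* and *Bcl3*, 2 further response genes named after their values were seen, were called under neither scaling.

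**Figure D5:**
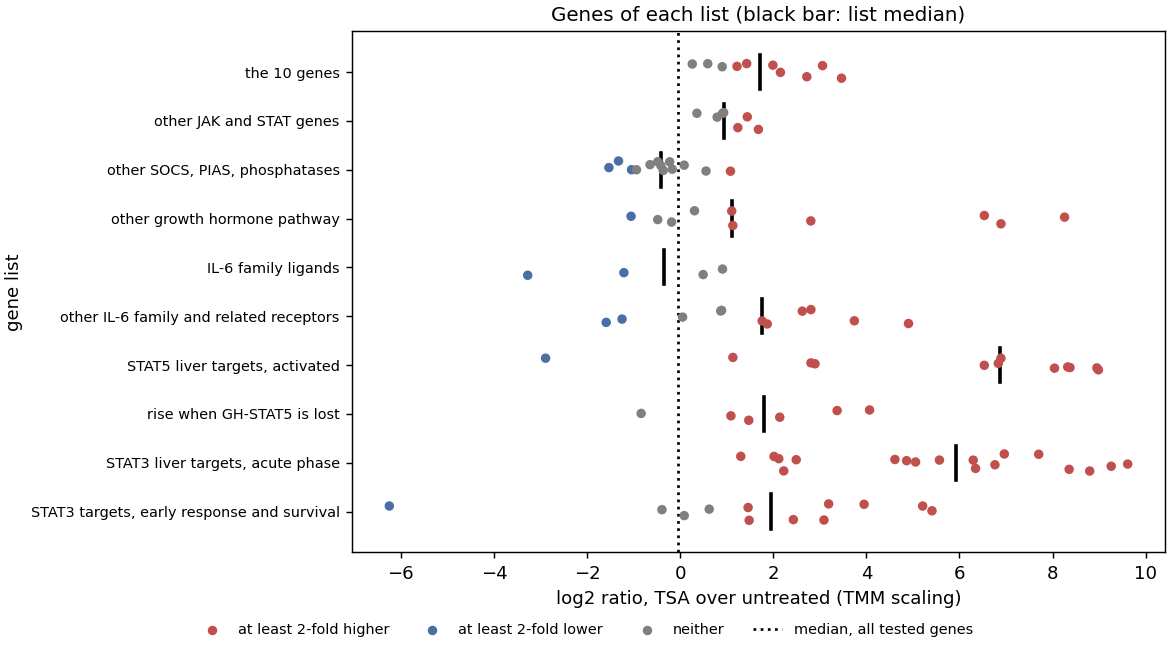
Log2 ratio, TSA over untreated with TMM scaling, of every tested gene of the 10-gene set and of the 9 pathway lists, coloured by call, with list medians as black bars and the median of all tested genes as a dotted line. *Elovl3* and *Orm2*, at 0 counts without treatment, are drawn at a floor of 3 counts. The STAT5-activated and acute phase lists lie farthest to the right, and the inhibitor and ligand lists have medians below that of all genes.

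In all, the 9 lists held 95 genes, of which 90 were tested, and 55 (61.1%) were called higher and 10 lower with TMM, and 41 and 20 on total counts. Of all tested genes 27.0% were called higher and 26.0% lower with TMM, and 16.0% and 48.7% on total counts. The markers of other cells that express these receptors and inhibitors moved as follows. Macrophage markers summed to 680 CPM in the TSA library and 381 CPM in the untreated library, with 5 of 9 called higher and 1 lower. They did not move together, as the following genes, named after their values were seen, show. *Clec4f* was 46.4-fold (38.0 to 57.1) higher and *Cd68* 3.27-fold (2.87 to 3.73) lower, and *C1qa*, *C1qb* and *C1qc* were not called. All 5 B cell markers were called higher, at 19.3 and 4.88 CPM in sum. T and NK cell markers summed to 8.13 CPM with TSA and 8.12 CPM without, with 1 of the 3 tested called higher. Neutrophil markers summed to 11.5 CPM with TSA and 3.16 CPM without, and *Ly6g* was at 0 in both. Stellate and fibroblast markers summed to 560.3 and 309.8 CPM, with 4 of 7 called higher and 1 lower. Cholangiocyte markers summed to 51.9 and 48.2 CPM, with 3 of the 5 tested called higher and 2 lower. Different genes made up these 2 sums, and they are named after their values were seen. *Spp1*, called higher, gave 43.8 CPM with TSA and 3.20 CPM without. *Krt7* and *Epcam*, called lower, gave 0.805 and 1.69 CPM with TSA and 24.3 and 19.9 CPM without. Erythroid markers summed to 363 and 68.6 CPM, with all 5 tested called higher. On total counts several of these sums turned. Macrophage markers then summed to 495 CPM in the TSA library and 524 CPM in the untreated library, with 3 called higher and 3 lower. Stellate and fibroblast markers summed to 408 and 426 CPM, cholangiocyte markers to 37.7 and 66.2 CPM, and T and NK cell markers to 5.91 and 11.2 CPM. The B cell, neutrophil, endothelial and erythroid sums remained larger with TSA. The part of these cells in the values of the 10 genes was not tested.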

How the data were processed

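The data are polyA RNA-seq of 2 mouse liver libraries, 1 with TSA and 1 untreated. The submitters' processing notes list Trimmomatic, HISAT2, Bowtie2 and DESeq without saying which did what. Build, annotation, counter and strandedness were not given in the sources used here. Antisense or overlapping genes may share reads. The deposited counts, per the file headers, are whole, unscaled reads per gene symbol. The authors' FPKM equals counts over gene model length and library total. Lengths recovered this way matched between libraries to 0.1 base for the 14271 genes detected in each.

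TMM factors came from edgeR 4.0.16 (R 4.3.3) over genes with at least 20 summed counts and were 0.727 (TSA) and 1.37 (untreated). Intervals of ratios are exact conditional binomial (Clopper-Pearson) at 95%, and ratios of ratios have exact conditional odds ratio intervals. Both cover counting error alone: without molecular identifiers, reads are not independent molecules. A count of 0 was set to 3 counts. Calling was tested on simulated data with 200 changed genes and counting error alone. That setting lacks the broad difference between the real libraries, so it does not test the calls made there. DESeq2 1.42.0 size factors, upper quartiles, total counts, FPKM with 0.1 added, other count minimums and other fold thresholds were alternatives. Python 3.11.15, scipy 1.17.1 and matplotlib 3.10.9 were used. NCBI RefSeq names matched all 10 genes.

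The 10 genes and the lists were chosen with earlier results of these data known. Named genes were all 10, every ligand or receptor of the lists and, for each list, from genes of 50 or more summed counts, the 2 most abundant and the 2 of largest absolute log2 ratio. Exceptions are marked, and a gene selected by the rule is not reported here.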

Additional observations from a re-analysis of the deposited data

How the results depend on the processing

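The direction and size of single ratios depended on scaling. With total counts 2084 tested genes were called higher and 6339 lower, and with the deposited FPKM plus 0.1 the counts were 1983 and 6186, against 3519 and 3385 with TMM. With a threshold of 4-fold they were 2019 and 1562. Of the 10 signalling genes 4 were then called higher in place of 7, and no alternative called any of them lower. Over the pathway lists 10 genes were called lower with TMM, against 20 on total counts, 21 with FPKM plus 0.1, 3 at 4-fold and 6 where the interval bound itself had to reach 2-fold. DESeq2 size factors, upper quartiles and TMM over all listed genes, the last chosen after seeing the data, gave 7 of the 10 called higher, as did count minimums of 1 and 50. The 7 ratios between gene pairs moved by less than their intervals when FPKM plus 0.1 replaced counts. No paired analysis was possible because each group has 1 library. No library could be left out for the same reason. *Socs3*, with 154 and 74 counts, had the widest relative interval of the 10, and ligand genes were too scarce for firm ratios.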

Other observations

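With 2 libraries the pattern of a gene is a pair of levels, and likeness between genes says little. The tested genes nearest to *Socs2* in log2 CPM of both libraries were *Aff1* (777 counts with TSA and 126 without), *Prnp* (735 and 135) and *C1s2* (745 and 116), and 11 genes lay within a distance of 0.25. The nearest to *Stat5b*, which had the smallest ratio of the 10, were *Ndufb5*, *Nfe2l2* and *Mmp14*, and 104 genes lay within that distance.

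Ordered by ratio, the 10 genes ran from *Socs2* through *Ghr*, *Il6st*, *Il6ra*, *Socs3*, *Stat5a*, *Stat3*, *Jak2* and *Cish* to *Stat5b*. Neighbours in that order differed beyond counting error except for *Il6ra* and *Socs3*, *Stat5a* and *Stat3*, and *Jak2* and *Cish*. *Socs2* exceeded *Ghr* 1.33-fold (1.09 to 1.62) in ratio.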
